A study of Mus musculus with 12 samples.

Results

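RNA was sequenced from RAW264.7 cells, a mouse macrophage line, that carried the genotype the labels call Null or the genotype they call CRISPR TFEB/TFE3 DKO, in which both transcription factors were targeted (double knockout). The comparison described here is that between the 3 DKO libraries and the 3 Null libraries made after 8 h in 100 µM etoposide, which are 6 of the 12 libraries of the series. The other 6 libraries, 3 of each genotype, came from control cells that the labels call untreated and the study's methods describe as given DMSO. All cells were grown in the same high-glucose medium with serum. The members of the comparison are genes, and 18066 of the 32688 genes counted were abundant enough to be tested. The question it addresses is which transcripts depended on the genotype once DNA had been damaged.

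The 6 etoposide libraries held 50172982 to 61809316 counts, and all 12 held 29837255 to 61809316. On the log2 scale the median standard deviation of a gene was 0.09 between the Null and 0.15 between the DKO etoposide libraries, against 0.21 and 0.24 in the control groups. The share of counts from mitochondrial DNA was 19.4% to 21.7% in the Null and 17.0% to 18.1% in the DKO etoposide libraries. The labels do not say whether replicates were separate cultures, whereas the study describes the etoposide samples of each line as independent. Each genotype is represented by 1 line, so every p-value measures the spread between these libraries and not that between independently made knockouts. The labels name 2 RNA isolation kits without assigning them to libraries, so their part could not be tested. In the DKO etoposide group the sample titles read MEFs (an abbreviation for embryonic fibroblasts of mouse), although the other labels name RAW264.7. In these libraries 8 macrophage markers summed to 4599 to 4698 CPM (counts scaled to a common library size, 1 CPM being 1 count in 1e+06), against 4400 to 4700 CPM in the Null etoposide libraries, and 8 fibroblast markers summed to 1.02 to 1.21 CPM, against 1.97 to 2.07 CPM. No marker of either cell type was at 0 in all 6 libraries. Markers of lymphocytes summed to 0.333 to 0.941 CPM and those of epithelial cells to 0.274 to 0.566 CPM over the 6 libraries.

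TFEB and TFE3 are basic helix-loop-helix leucine zipper factors of the MiT/TFE family. They are held in the cytosol by mTORC1 and, when lysosomes are stressed or nutrients run out, enter the nucleus and bind E-boxes, the most familiar targets being genes of lysosomes and autophagy. Etoposide traps topoisomerase II on cut DNA, and the breaks that remain stabilize the transcription factor p53, which holds the cell cycle through p21 and the DREAM repressor complex and can start apoptosis. Macrophages also use these 2 factors in their immune responses, and sense damaged DNA through interferon pathways.

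The targeted genes were examined first. Tfe3 (ENSMUSG00000000134.17) was at 103, 99.1 and 102 CPM in the 3 Null etoposide libraries and at 38.6, 34.2 and 40.4 CPM in the 3 DKO etoposide libraries. Tfeb (ENSMUSG00000023990.18) was at 7.62, 7.10 and 7.95 CPM in the Null and 4.27, 4.30 and 4.44 CPM in the DKO libraries. Both transcripts were lower in every DKO library than in any Null library, with log2 differences of -1.43 (SE 0.12) and -0.79 (SE 0.16). The gap for Tfeb was smaller than in control cells, where it was -1.95, and the interaction of 1.16 passed the test. Counts over a whole gene do not show whether the remaining transcript encodes a working protein. The third family member measured, Mitf, was at 26.8, 25.3 and 24.9 CPM in Null and 36.2, 40.0 and 38.2 CPM in DKO cells, a log2 difference of 0.57. Flcn, which encodes folliculin, the activator that lets RagC and RagD hand TFEB to mTORC1, differed by -0.43, and its partner Fnip1 by -0.78, with 43.7, 38.8 and 40.4 CPM in Null and 24.3, 24.6 and 22.6 CPM in DKO libraries. Both were also lower in control cells, at -0.76 and -0.76. Of the 10 genes of this list, 4 were lower and 2 higher, with a median of 0.00, or -0.24 without DKO etoposide replicate 3 and -0.10 without Null etoposide replicate 1. Differences are given throughout as log2 of the DKO to Null ratio, so that negative values are lower in DKO cells.

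Of the 18066 genes tested with limma-trend and Benjamini-Hochberg adjustment, 6079 (33.6%) passed an adjusted p of 0.05, 2868 of them higher (15.9%) and 3211 lower (17.8%) in DKO cells. Among them 689 were at least 2-fold higher and 1478 at least 2-fold lower, and at 16-fold there were 28 and 48. The 3 Null and 3 DKO libraries did not overlap for 10052 genes (55.6%). The balance of directions depended on scaling. When each library was centered on its median gene, which moved the median of all genes by 0.11 on the log2 scale, 4180 genes were higher and 2590 lower, so that 61.7% of the calls were higher instead of 47.2%. The medians of gene lists given below rise by the same 0.11 with this scaling, and for the 25 lists with a median under 0.25 in size, leaving out 1 library moved it by up to 0.25 (MiT/TFE list) and in the other 24 by up to 0.11. In control cells 3490 genes (19.3%) passed the same test, 1974 higher (10.9%) and 1516 lower (8.39%). That balance also depended on scaling, since with library size alone 1579 were higher and 2057 lower (43.4% higher).

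Part of the genotype difference with drug was also called without it. Of the 2868 genes that were higher after etoposide, 1387 (48.4%) were also higher in control cells, and of the 3211 that were lower, 1058 (32.9%) were also lower. These shares depend on how the control libraries are fitted. With the control call taken from those 6 libraries alone, an alternative chosen after seeing the data, they were 939 (32.7%) and 723 (22.5%). That fit had its own filter, scaling and spread, with 16626 genes tested, so the part of the spread alone was not tested. The interaction of genotype and drug, which tests the change of the difference itself, passed for 1708 genes (9.45%), 554 upward (3.07%) and 1154 downward (6.39%). On median-centered libraries this balance turned, with 1137 upward and 941 downward. With the scaling used throughout (TMM) the interaction was upward for 388 of the higher genes and downward for 934 of the lower genes. Of these, 248 and 723 did not pass in control cells. A further 1195 higher and 1355 lower genes passed neither in control cells nor by the interaction, so that for them neither a difference without drug nor a change with drug was shown. The plot of the difference after etoposide against that in control cells shows the 723 among a column of points below 0.

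**Figure D1:**
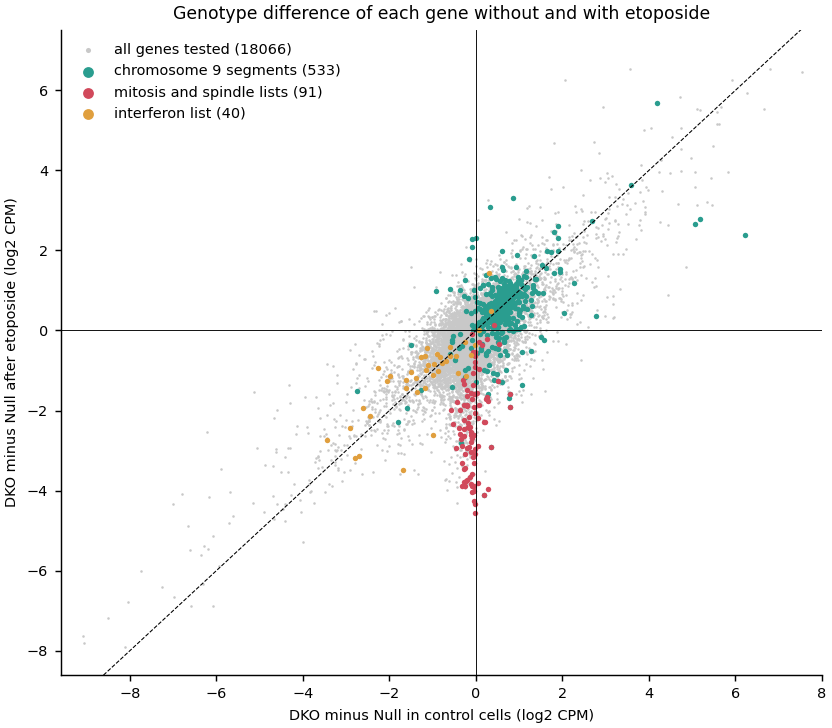
Difference between DKO and Null cells in control cells (horizontal axis) and after etoposide (vertical axis), both as log2 of the CPM ratio, for the 18066 genes tested, with 533 protein-coding genes of the chromosome 9 segments, the 91 of the 2 mitotic lists and the 40 of the interferon list in color. Genes on the diagonal differed to the same extent without drug, and the genes of the 2 mitotic lists gather near 0 on the horizontal axis, with medians of -2.30 and -2.41 on the vertical axis.

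Genes with known roles in mitosis had the largest differences of those that did not pass without drug. Among genes that were lower after etoposide with a called interaction, and in control cells did not pass and differed by under 0.5, the 10 lowest were Cenpf, Hmmr, Aspm, Ccnb2, Depdc1a, Nuf2, Cdc25c, Plk1, Fam83d and Kif14. Hmmr (ENSMUSG00000020330.16, chromosome 11, 40701395 to 40733422, minus strand, GRCm38), whose protein binds spindle poles, was at 79.6, 71.7 and 74.7 CPM in the Null and 4.09, 3.74 and 3.21 CPM in the DKO libraries. Its control means were 103 ± 13.3 and 101 ± 8.97 CPM (SD, n = 3). Every DKO library thus lay more than 10-fold below every Null library, with a log2 difference of -4.34 (SE 0.11) and an adjusted p of 4.85e-11 by limma-trend with Benjamini-Hochberg adjustment.

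The remaining members had differences of similar size. Aspm, a spindle pole protein that sets the plane of division, was at 78.7, 73.4 and 75.8 CPM in Null and 3.78, 3.41 and 4.52 CPM in DKO libraries. Ccnb2, a B-type cyclin that drives CDK1, was at 62.2, 60.8 and 62.4 CPM against 4.09, 2.90 and 3.63 CPM. Plk1, the polo-like kinase needed for mitotic entry and spindle assembly, was at 44.3, 47.5 and 41.6 CPM against 2.73, 2.61 and 3.01 CPM, with the widest standard error of the 10 (0.24). Their log2 differences were -4.27, -4.12 and -3.97, and Ccnb2 and Plk1 were slightly higher in DKO control cells without passing the test (0.18 and 0.29). Cdc25c, the phosphatase that activates CDK1, was at 13.1, 12.05 and 12.8 CPM against 0.818, 0.787 and 0.592 CPM. Nuf2, a subunit of the NDC80 complex that holds microtubules at the kinetochore, was the steadiest of the 10, at 52.5, 49.9 and 49.6 CPM against 2.98, 3.13 and 2.98 CPM (log2 difference -4.04, SE 0.076). Fam83d, which targets casein kinase 1 to the spindle, and the cytokinesis kinesin Kif14 differed by -3.94 and -3.90, and Depdc1a by -4.11.

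**Figure D2:**
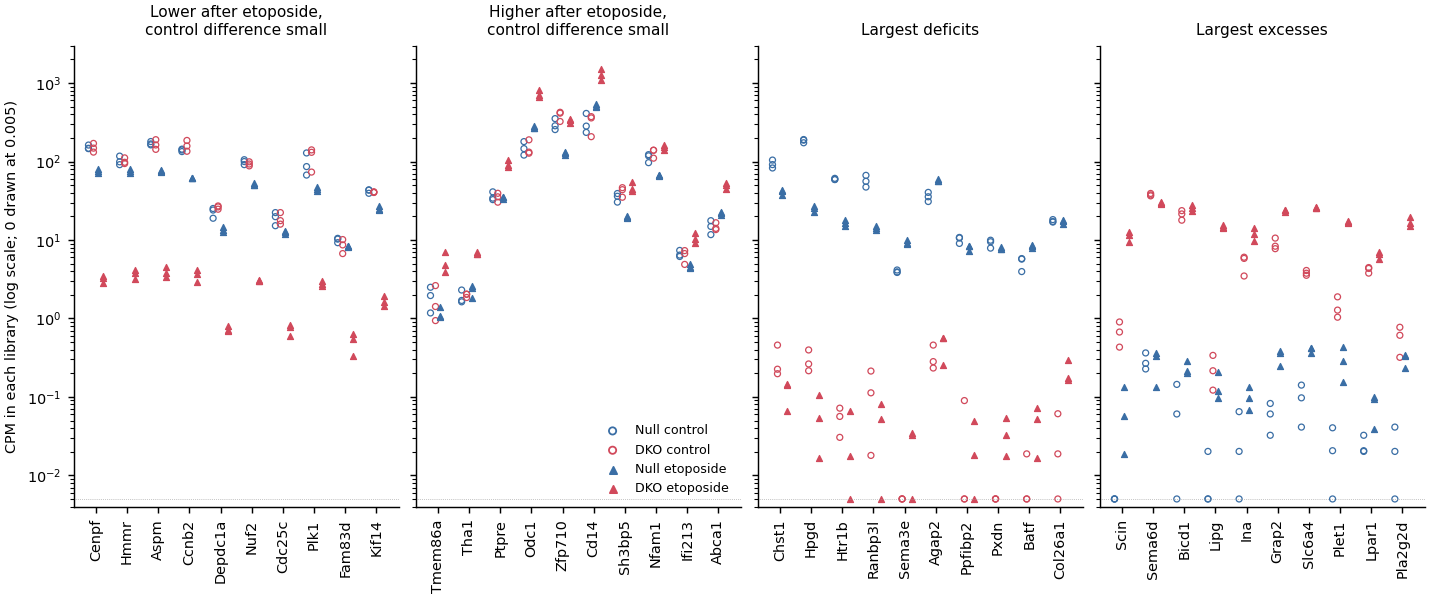
CPM (log axis, with 0 drawn at 0.005) in each of the 12 libraries for the first 10 genes of each set chosen by rank. Circles are control and triangles etoposide libraries, blue is Null and red is DKO. In the leftmost panel the red triangles lie below the other 3 groups, whereas for the genes with the largest differences the colors separate with and without drug.

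The promoters of 8 of these 10 genes are shown because members that move together can be read for shared letters. Cdc25c is not shown, and Kif14 was left out because the start listed for it lies inside the gene as annotated here. Each is the 120 bases before the transcription start, 5′ to 3′ on the strand of the gene, as listed by RefSeq for GRCm38.p6. Capitals mark a CCAAT box (CCAAT, or ATTGG on the other strand) and a CHR element (cell cycle genes homology region, TTTGAA, or TTCAAA on the other strand). The CCAAT box is bound by NF-Y and the CHR by the DREAM and MuvB complexes.
Hmmr (chr11:40733438-40733557, minus strand): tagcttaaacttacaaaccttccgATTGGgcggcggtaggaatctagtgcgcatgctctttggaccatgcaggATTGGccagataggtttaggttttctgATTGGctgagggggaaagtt
Aspm (chr1:139454653-139454772, plus strand): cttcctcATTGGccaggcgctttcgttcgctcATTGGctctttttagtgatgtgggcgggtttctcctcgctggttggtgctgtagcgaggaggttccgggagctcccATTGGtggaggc
Ccnb2 (chr9:70421555-70421674, minus strand): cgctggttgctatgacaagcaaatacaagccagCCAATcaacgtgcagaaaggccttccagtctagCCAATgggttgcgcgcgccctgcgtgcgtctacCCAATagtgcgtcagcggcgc
Fam83d (chr2:158767979-158768098, plus strand): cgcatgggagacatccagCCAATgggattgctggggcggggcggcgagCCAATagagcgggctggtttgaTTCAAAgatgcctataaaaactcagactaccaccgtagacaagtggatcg
Depdc1a (chr3:159495313-159495432, plus strand): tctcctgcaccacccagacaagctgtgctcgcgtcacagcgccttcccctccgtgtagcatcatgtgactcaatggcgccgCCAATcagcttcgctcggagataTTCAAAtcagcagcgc
Cenpf (chr1:189688087-189688206, minus strand): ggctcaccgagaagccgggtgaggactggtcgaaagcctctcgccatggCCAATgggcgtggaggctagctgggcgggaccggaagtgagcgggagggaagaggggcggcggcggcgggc
Nuf2 (chr1:169531465-169531584, minus strand): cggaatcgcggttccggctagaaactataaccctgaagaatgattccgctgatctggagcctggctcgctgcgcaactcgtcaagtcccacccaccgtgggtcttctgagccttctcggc
Plk1 (chr7:122159315-122159434, plus strand): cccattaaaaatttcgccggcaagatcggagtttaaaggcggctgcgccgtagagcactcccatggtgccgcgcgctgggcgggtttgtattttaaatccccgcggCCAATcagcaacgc
Hmmr, Aspm and Ccnb2 each held 3 CCAAT boxes in this window. Fam83d held a CHR 50 bases and CCAAT boxes 72 and 102 bases before the start, and Depdc1a a CHR at 16 and a CCAAT box at 39 bases. Cenpf and Plk1 each held 1 CCAAT box, at 71 and 14 bases, and no CHR, and Nuf2 held neither in this window. Over the 250 bases before the start, a CCAAT box was found on either strand in 62.2% and a CHR in 33.8% of the 74 genes of the mitotic lists for which a promoter was given. Of the 10808 genes tested with a promoter, 40.0% held a CCAAT box and 13.3% a CHR, and the shares over all 27025 genes with a listed promoter were 37.5% and 18.3%. Of the 723 genes that were lower with a downward interaction and did not pass in control cells, 485 had a promoter. Of these, 54.2% held a CCAAT box, 21.9% a CHR and 12.6% the E2F sequence GCGGGAA, which 7.80% of the genes tested with a promoter held. A match describes letters and not binding, and the promoter table covered 59.9% of the genes tested.

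The mitotic lists as a whole gave the same picture. Of 31 genes of mitotic entry and exit, 30 were lower in DKO cells after etoposide and none higher, with a median difference of -2.30, against -0.08 in control cells. Of 60 genes of the spindle, kinetochores and condensin, 58 were lower and none higher, with a median of -2.41, against -0.09 in control cells. The interaction passed for 28 and 59 of them, all downward. The median of all genes tested was -0.01. Summed over the 91 genes, the etoposide libraries held 6619, 6485 and 6378 CPM in Null and 1780.4, 1789 and 1799 CPM in DKO cells. The 6 control libraries lay between 9977 and 10502 CPM with no separation by genotype. The sum was thus lower with drug in both lines and lowest in the DKO line. In bulk RNA, fewer cells in mitosis and less of these transcripts in each cell cannot be told apart. Ttk, the spindle checkpoint kinase MPS1, illustrates the levels, at 29.0, 29.5 and 28.3 CPM in Null and 1.74, 2.12 and 1.84 CPM in DKO etoposide libraries.

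Genes of DNA synthesis followed at a smaller size. Of 47 genes of DNA replication, 40 were lower and none higher, with a median of -0.92, against -0.18 in control cells. Their summed level was 3219 to 3380.0 CPM in Null and 1764 to 1845 CPM in DKO etoposide libraries. Mcm10, which activates the replicative helicase, was at 57.8, 63.1 and 58.4 CPM in Null and 10.8, 11.5 and 10.9 CPM in DKO libraries. Clspn, the checkpoint adaptor claspin, was at 65.6, 69.6 and 65.0 CPM against 13.6, 12.8 and 13.9 CPM. These were differences of -2.42 and -2.31, and Gins1 (-2.12) and the primase subunit Prim1 (-2.10) were close to them. Among 27 genes of nucleotide synthesis 13 were lower and 2 higher, with a median of -0.14, or -0.25 without DKO etoposide replicate 2, -0.22 without the genes of the chromosome 9 segments and -0.03 on median-centered libraries. The lower ones were led by Rrm2, the regulatory subunit of ribonucleotide reductase, at 80.3, 82.0 and 74.4 CPM in Null and 13.4, 13.5 and 13.6 CPM in DKO libraries. The catalytic subunit Rrm1 differed by -1.51, the thymidylate synthase gene Tyms by -1.61 and the thymidine kinase gene Tk1 by -1.60. The deaminase gene Dctd lay in the other direction at 0.54.

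Replication-dependent histone genes, which are transcribed in S phase, were lower in all 28 cases, with a median of -2.22. Their sum was 976 to 1144 CPM in Null and 245 to 269 CPM in DKO etoposide libraries. In control cells the sums were 3363 to 3465 and 2604 to 3010.0 CPM, with a median difference of -0.42. Hist1h1b, a linker histone gene, was at 31.3, 33.7 and 30.4 CPM in Null and 2.49, 2.45 and 1.92 CPM in DKO etoposide libraries. Hist1h3b and Hist1h3c differed by -3.56 and -3.43. Histone copies are nearly identical, so reads can be lost or shared between them and single members are uncertain. The window of 10 Mb on chromosome 13 that holds the main histone cluster had a median of -1.96 over its 79 genes, and the other windows of 15 or more genes outside chromosome 9 lay between -0.19 and 0.23.

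Of 50 DNA repair genes, 37 were lower and 7 higher, with a median of -0.57, against -0.12 in control cells. The lowest value was that of Fancd2. It encodes the clamp of the Fanconi anemia pathway that loads onto crosslinked DNA, and was at 51.8, 49.7 and 50.5 CPM in Null and 6.69, 4.76 and 7.88 CPM in DKO libraries. Fancb, Rad51ap1 and the BRCA1 partner Bard1 differed by -2.61, -2.58 and -2.25. Nhej1, a factor of end joining, was higher, with 1.82, 1.95 and 2.12 CPM in Null and 3.49, 3.36 and 3.42 CPM in DKO libraries, a difference of 0.79 beside 0.83 in control cells.

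The targets of the drug and the pumps that remove it differed in single members. Top2a, the topoisomerase II that dividing cells use, was at 475, 449.8 and 447 CPM in Null and 79.4, 85.2 and 87.1 CPM in DKO libraries, a difference of -2.45 (SE 0.077). Top2b, the isoform that does not depend on division, was at 255, 228 and 235 CPM and 216, 225 and 251 CPM, and these groups overlapped. Without drug Top2a averaged 759 ± 66.7 CPM in Null cells against 682 ± 18.9 CPM in DKO cells (SD, n = 3), which did not pass the test. Of the 8 genes of these targets and of adduct removal 2 were lower and none higher (median -0.05, or -0.14 without DKO etoposide replicate 3, -0.08 without DKO etoposide replicate 2 and 0.06 on median-centered libraries). Tdp2, which frees topoisomerase II from DNA ends, was at 30.7, 30.3 and 30.3 CPM in Null and 15.7, 17.5 and 17.4 CPM in DKO libraries (-0.85), whereas Tdp1 overlapped. Of the 7 drug efflux pump genes, 3 were higher and 3 lower (median -0.28). Abcc1, which exports conjugated drugs, was at 106, 110.1 and 109.7 CPM in Null and 248, 256 and 242 CPM in DKO libraries, and Abcc4 and Abcc3 differed by 0.60 and 0.48. Abcb1b, a mouse P-glycoprotein gene for which etoposide is a known substrate, was lower, at 283, 262 and 273 CPM against 172, 176 and 187 CPM. Abcc5 differed by -0.28, a call lost on median-centered libraries (-0.17), and Abcg2, which reached at most 1.06 CPM, by -1.26, a call lost without Null etoposide replicate 3 (-1.21) or DKO etoposide replicate 1 (-1.13). Abcb1a did not pass. Uptake and intracellular drug were not measured.

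Cell cycle regulators of G1 and the start of S phase differed in both directions. Of 32 tested, 19 were lower and 4 higher, with a median of -0.39. The atypical repressors E2f7 and E2f8, themselves E2F targets, were both lower in DKO cells. E2f7 was at 25.2, 24.7 and 24.05 CPM in Null and 4.67, 4.30 and 5.16 CPM in DKO libraries. E2f8 was at 37.9, 38.8 and 38.6 CPM against 7.52, 7.15 and 9.09 CPM. Ccnd2 (cyclin D2) was lower (-2.36), and also in control cells (-1.93). On the other side, Ccnd1 (cyclin D1) was at 356, 369 and 361 CPM in Null and 634, 643 and 609 CPM in DKO libraries, and its kinase Cdk6 at 80.4, 71.2 and 81.1 CPM against 219, 198 and 245 CPM. Myc was at 0.757, 0.701 and 0.791 CPM in Null and 7.34, 6.38 and 7.46 CPM in DKO libraries. That difference of 3.14 was smaller than the 5.45 seen in control cells. Cdk7 was higher by 0.50.

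Of 45 p53 targets tested, 25 were lower and 6 higher, with a median of -0.42. In control cells the same list ran the other way, with 18 higher, 2 lower and a median of 0.16, and the interaction passed downward for 24 and upward for 1. Summed CPM of the list was 5549 to 5807 in Null and 3903 to 4241 in DKO etoposide libraries. Pmaip1, which encodes the death protein NOXA, was at 84.4, 75.7 and 79.4 CPM in Null and 22.7, 26.4 and 24.3 CPM in DKO libraries. Bbc3, which encodes the related PUMA, was at 66.7, 78.5 and 72.7 CPM against 32.3, 28.0 and 31.6 CPM. Both were slightly higher in DKO control cells, at 0.35 and 0.33, of which the first passed the test. Gtse1 and Ckap2, which are targets of p53 signaling but also mitotic proteins, differed by -1.88 and -2.12. The growth arrest gene Gadd45a reached at most 3.13 CPM and differed by -1.5. In the other direction, Tnfrsf10b, the mouse TRAIL death receptor, was at 2.51, 2.46 and 2.39 CPM in Null and 13.1, 11.8 and 13.1 CPM in DKO libraries, and Plk3 and the autophagy regulator Dram1 were higher by 0.53 and 0.35. Among 28 genes of the BCL2 family and caspases, 7 were lower and 5 higher, with a median of 0.15. They included Bmf (-0.56) among the lower and Casp1, the inflammasome caspase, among the higher (0.96).

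Other genes met the same rule in the other direction. Without the limit of 0.5 and the limits on level, overlap, gene type and symbol, they numbered 248 against 723. On median-centered libraries, an alternative chosen after seeing the data, the numbers were 629 against 568. The 10 highest, whose differences were smaller in size than those of the 10 lowest, were Tmem86a, Tha1, Ptpre, Odc1, Zfp710, Cd14, Sh3bp5, Nfam1, Ifi213 and Abca1. Odc1, ornithine decarboxylase, the first enzyme of polyamine synthesis, was at 267, 287 and 266 CPM in Null and 711, 823 and 664 CPM in DKO libraries, from control means of 149 ± 29.4 and 149.5 ± 34.3 CPM (SD, n = 3). Cd14, the lipopolysaccharide co-receptor, was at 514, 538 and 499 CPM in Null and 1279, 1084 and 1494 CPM in DKO libraries. The DKO libraries varied more than the Null libraries in both. The rule that chose these genes required groups without overlap. Their log2 differences were 1.42 (SE 0.16) and 1.30 (SE 0.23). Abca1, which exports cholesterol, was at 22.03, 23.02 and 20.8 CPM in Null and 50.2, 52.6 and 44.8 CPM in DKO libraries. Ptpre, a receptor-type tyrosine phosphatase, was at 33.1, 35.1 and 35.5 CPM against 90.8, 84.7 and 104 CPM, and Nfam1, an activating immune receptor, at 66.9, 66.0 and 66.9 CPM against 153, 141 and 164 CPM. Tmem86a, which encodes a lysoplasmalogenase, had the largest difference of this set at 2.08, and with 4.82, 3.87 and 7.10 CPM its DKO libraries spread the widest (SE 0.36). The others were Tha1, threonine aldolase, at 1.55, the interferon-family gene Ifi213 at 1.17, the zinc finger gene Zfp710 at 1.39 and Sh3bp5 at 1.26. Reads of the overlapping gene Capn7 could make up 8.74% of the Sh3bp5 counts.

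The largest differences of all after etoposide were those that the lines also had in control cells. Chst1 (ENSMUSG00000027221.5, chromosome 2, 92599707 to 92615250, GRCm38), a keratan sulfate sulfotransferase, held 2212, 2244 and 2245 counts in the Null and 8, 8 and 4 counts in the DKO etoposide libraries. The ratio of the summed levels was 364-fold lower in DKO cells (95% counting interval 235 to 596). Hpgd (ENSMUSG00000031613.9, chromosome 8, 56294585 to 56321043), which inactivates prostaglandins, was at 27.0, 25.8 and 22.5 CPM in Null cells and held 3, 6 and 1 counts in the DKO libraries, a ratio of 449 (244 to 937). Htr1b, the serotonin receptor 1B, held 5 counts over the 3 DKO libraries against 2723 in the Null libraries, a ratio of 591 (253 to 1822). Reads of the overlapping gene D430036J16Rik could make up 14.8% of the Htr1b counts. These intervals cover counting error only. In all 3 the DKO libraries lay far below the Null libraries, and so they did in control cells, where the fitted differences were -8.11, -9.07 and -9.08.

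The other members of this set ranged from -7.18 to -5.27. They included Csf3r, the receptor for granulocyte colony-stimulating factor, the transcription factor genes Batf, Runx3 and Hoxc4, the semaphorin gene Sema3e, the extracellular matrix genes Pxdn and Col26a1, and Agap2, Ppfibp2, Rbpms, Ranbp3l and Btla. Csf3r was at 52.7, 50.4 and 52.7 CPM in Null and 0.872, 0.630 and 1.00 CPM in DKO libraries. Runx3, which directs dendritic and lymphoid fates, was at 6.04, 5.47 and 5.29 CPM against 0.0545, 0.0525 and 0.0987 CPM. Batf, an AP-1 partner of immune cells, was at 8.44, 8.52 and 7.89 CPM against 0.0727, 0.0525 and 0.0164 CPM. Each was also apart in control cells, at -5.94, -6.62 and -6.31.

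In the opposite direction, Sema6d (ENSMUSG00000027200.17, chromosome 2, 124089969 to 124667770), a transmembrane semaphorin, was at 0.336, 0.133 and 0.367 CPM in Null and 28.6, 30.9 and 29.2 CPM in DKO libraries, a ratio of 102 (95% counting interval 76.7 to 140.0). Bicd1, a dynein adaptor, and Grap2, an adaptor of antigen receptor signaling, were below 0.4 CPM in every Null library. In the DKO libraries Bicd1 was at 23.5, 25.3 and 27.8 CPM and Grap2 at 23.8, 24.1 and 22.95 CPM. Zhx2, a transcriptional repressor, was at 0.151, 0.170 and 0.135 CPM against 9.72, 9.69 and 9.65 CPM. In control cells the differences of these 4 were 6.79, 7.53, 6.26 and 6.65. Other members of the set were closer together there. Scin, the actin-severing protein scinderin, held 8, 1 and 3 counts in the Null and 522, 666 and 773 in the DKO etoposide libraries, a ratio of 151 (86.0 to 292). Lipg, endothelial lipase, was at 0.118, 0.208 and 0.0965 CPM in Null and 14.4, 15.3 and 14.7 CPM in DKO etoposide libraries. In DKO control cells Scin averaged 0.668 CPM and Lipg 0.225 CPM, and the interactions were 2.98 and 4.20. Pla2g2d, a secreted phospholipase, was similar, at 16.5, 15.2 and 19.7 CPM in DKO etoposide libraries and 0.567 CPM in DKO control cells. Slc6a4, the serotonin transporter, was at 0.420, 0.360 and 0.425 CPM against 25.7, 25.7 and 26.4 CPM, Lpar1, a receptor for lysophosphatidic acid, at 0.101, 0.0947 and 0.0386 CPM against 6.60, 6.96 and 5.72 CPM, and Angptl2, Nxf7 and the fatty acid translocase Cd36 differed by 5.50, 5.16 and 5.02. Rgs16 was at 1.35, 1.17 and 1.41 CPM against 63.0, 61.0 and 54.8 CPM, and up to 16.9% of its counts could be reads of the overlapping Gm28513. Ina (6.25) and Plet1 (5.69) complete the set. Ina held 16 counts over the Null and 2075 over the DKO libraries, and Plet1 49 and 2950. Both are uncertain because of the overlapping genes Nt5c2 and Plet1os. In the group with the larger estimate, these could account for all or 93.0% of the counts. The 30 genes of both directions passed the test in each of the 12 fits that left out 1 library. They were chosen as the largest called differences without overlap, so this is no independent support.

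Among immune genes, those stimulated by interferon were lower in the DKO line. Of 40 tested, 34 were lower and 2 higher after etoposide, with a median of -1.0, and in control cells 33 were lower and 2 higher, with a median of -1.12. The interaction passed for 6 of them, so that for most of them a change of the difference with drug was not shown. Usp18, which removes ISG15 from proteins and curbs interferon signaling, was at 17.3, 16.5 and 13.9 CPM in Null and 2.00, 2.57 and 2.40 CPM in DKO etoposide libraries. Ifi27l2a was at 15.9, 14.7 and 14.3 CPM against 1.71, 1.40 and 1.66 CPM. The antiviral GTPase genes Mx1 and Mx2 were rare in both lines, with 119 and 241 counts over the 3 Null and 2 and 21 counts over the 3 DKO libraries. Mx1 was 64.6-fold lower (95% counting interval 17.5 to 539) and Mx2 12.5-fold lower (7.97 to 20.5). Summed over the list, 1357 to 1443 CPM in Null stood against 1143 to 1187 CPM in DKO libraries. Irf5, a factor of Toll-like receptor signaling, was higher, with 344, 356 and 343 CPM in Null and 514, 479 and 469 CPM in DKO libraries. Oasl1, a translational brake on Irf7, was higher, with 20.4, 24.001 and 21.8 CPM against 61.1, 60.6 and 58.0 CPM, and its control difference was only 0.29.

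Promoters of 2 members of this list are shown with the interferon-stimulated response element (ISRE, searched as GAAA followed after 2 bases of any kind by GAAA, on either strand) in capitals. Both genes, chosen after their values were seen, were lower, Trim30a at 23.5, 20.9 and 20.1 CPM in Null against 7.72, 7.08 and 8.86 CPM in DKO libraries and Oas1a at 26.3, 26.6 and 23.5 CPM against 12.9, 13.7 and 11.8 CPM.
Trim30a (chr7:104465194-104465313, minus strand): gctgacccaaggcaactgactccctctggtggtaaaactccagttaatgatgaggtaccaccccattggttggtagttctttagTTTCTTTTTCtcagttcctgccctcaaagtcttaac
Oas1a (chr5:120907526-120907645, minus strand): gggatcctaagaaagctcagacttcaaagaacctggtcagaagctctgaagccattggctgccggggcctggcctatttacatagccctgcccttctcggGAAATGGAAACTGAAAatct
The ISRE of Trim30a lay 36 bases before the start, and Oas1a held overlapping matches at 20 and 14 bases. Of the 28 genes of the list with a promoter, 35.7% held these letters within 250 bases, against 3.29% of the genes tested with a promoter and 3.46% of all genes in the promoter table.

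More genes of antigen presentation were lower than higher. Of 23 genes of class I presentation, 9 were lower and 2 higher (median -0.29), with the nonclassical H2-Q4 at 18.8, 22.1 and 20.997 CPM in Null and 7.22, 7.22 and 5.89 CPM in DKO libraries and H2-M3 at -1.35. The chaperone gene Calr was higher by 0.58. Class I genes are near-identical copies, so single members are uncertain. Of 7 class II genes tested, whose median of -0.28 was -0.62 without DKO etoposide replicate 1, -0.56 without Null etoposide replicate 1 and -0.16 without DKO etoposide replicate 2, 3 were lower, among them the invariant chain gene Cd74 at 508, 506 and 524 CPM in Null and 278, 232 and 315 CPM in DKO libraries (-0.91) and H2-Oa (-1.11).

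Most genes of receptors for the Fc part of antibodies were lower, whereas most of the signaling genes behind them were higher. Of 5 receptor genes, 4 were lower and none higher, with a median of -2.68, and of 9 signaling genes 6 were higher and 1 lower, with a median of 0.38. Fcgr2b, the inhibitory receptor, was at 32.6, 31.3 and 30.1 CPM in Null and 3.49, 3.17 and 3.12 CPM in DKO libraries. The activating receptor genes Fcgr1 and Fcgr3 were both lower in DKO cells. Fcgr1 was at 37.3, 37.3 and 36.3 CPM in Null and 5.23, 5.42 and 4.72 CPM in DKO libraries. Fcgr3 was at 11.1, 10.7 and 11.8 CPM against 1.62, 1.802 and 1.66 CPM. All 3 were also lower in control cells, but by less (-2.10, -1.25 and -1.74), and the interaction passed for each. The signaling gene that was lower was Syk, the kinase that docks on their activated tails, at 97.7, 100 and 97.3 CPM in Null and 12.5, 11.7 and 12.7 CPM in DKO libraries, with -3.21 already in control cells. The Src-family kinase genes Fgr and Lyn were higher by 0.94 and 0.86, and the phosphatase gene Ptpn6 by 0.43.

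Other surface receptors were similarly divided. Of 23 C-type lectins and Siglecs 8 were higher and 10 lower, with a median of -0.71, or -0.02 over the genes with at least 1 CPM in 3 libraries. Among C-type lectins alone 7 of 12 were higher and 3 lower (median 0.59), and among Siglecs and the related TREM receptors 7 of 11 were lower and 1 higher (median -1.0). Clec4n (dectin-2) was at 0.471, 0.322 and 0.521 CPM in Null and 6.05, 6.26 and 6.64 CPM in DKO libraries. Clec5a and Clec4e (Mincle) were both higher in DKO cells. Clec5a was at 124, 118 and 123 CPM in Null and 311, 333 and 333 CPM in DKO libraries. Clec4e was at 135, 129 and 126 CPM against 268, 289 and 316 CPM. Against these, Cd33 was at 78.4, 71.6 and 78.2 CPM in Null and 9.14, 7.47 and 9.87 CPM in DKO libraries, and Trem1 and Trem3 were lower (-3.22 and -3.01). Of 30 Toll-like and other pattern receptors and adaptors, 9 were lower and 5 higher (median -0.12, or -0.20 both without DKO etoposide replicate 2 and without the genes of the chromosome 9 segments, and -0.01 on median-centered libraries), with Tlr13, a sensor of bacterial ribosomal RNA, at 17.1, 15.97 and 17.9 CPM in Null and 3.62, 4.65 and 4.78 CPM in DKO libraries, the DNA sensor gene Aim2 at -0.62 and the adaptor gene Myd88 at 0.93. Of 22 integrins and adhesion genes 10 were higher and 6 lower (median 0.11, or 0.20 without that library and 0.02 without the genes of the chromosome 9 segments). Itgax (CD11c) was at 4.49, 4.09 and 4.15 CPM in Null and 31.8, 32.1 and 32.1 CPM in DKO libraries, Cd44 at 294, 279 and 289 CPM against 600.2, 600.2 and 643 CPM, and Itga5 differed by 1.41, whereas Selplg and Itgal were lower (-0.91 and -0.44).

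Chemokines and their receptors leaned upward, with 12 of 20 tested higher, 4 lower and a median of 0.78, against 0.35 in control cells. The receptor genes Ccr1 and Ccr3 differed by 3.09 and 2.30. Ccr1 was at 1.43, 1.12 and 0.830 CPM in Null and 9.01, 10.1 and 10.4 CPM in DKO libraries, and its call was lost when a prior count of 0.5 was used (3.15). Neither passed in control cells. They lie together near the end of chromosome 9, in a segment described below that was higher as a whole, and without the genes of both chromosome 9 segments the median of the list was 0.72. Ccrl2, on the same segment, was lower (-2.30), as was Cxcr4, the receptor of CXCL12, with 283 counts over the 3 Null and 6 over the 3 DKO libraries, a 51.2-fold lower level (95% counting interval 23.2 to 141). The interferon-induced chemokine gene Cxcl10 reached at most 1.497 CPM in these libraries, and was lower (-2.26).

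Among cytokines and inflammatory mediators 9 of 31 were higher and 9 lower (median 0.14). The highest value was that of Il10, an anti-inflammatory cytokine. It was at 0.605, 0.625 and 0.540 CPM in Null and 8.83, 8.89 and 9.95 CPM in DKO etoposide libraries, and averaged 0.108 and 0.470 CPM in control cells. Il1rn, the natural antagonist of interleukin 1, was at 1.78, 1.46 and 2.32 CPM in Null and 7.12, 6.42 and 9.08 CPM in DKO libraries, and the cytokine gene Lif at 4.04, 4.64 and 5.25 CPM against 18.5, 15.1 and 18.2 CPM. Among the lower members, Nos2, the inducible nitric oxide synthase, was at 18.7, 19.2 and 20.6 CPM in Null and 1.04, 0.752 and 0.608 CPM in DKO libraries. Hpgds, which makes prostaglandin D2, was at 33.2, 32.6 and 32.8 CPM against 1.67, 1.89 and 1.51 CPM, and the cyclooxygenase gene Ptgs1 and Csf1 were lower (-2.85 and -2.22). Grouped after their values were seen, 3 enzymes of prostaglandin handling (Hpgd, Hpgds and Ptgs1) were lower and Ptges, a prostaglandin E2 synthase, was higher (1.45).

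Regulators of NF-kB, the main inflammatory transcription factor, were split (5 of 14 higher, 3 lower, median 0.15, or 0.26 without DKO etoposide replicate 2 and 0.06 without replicate 3 of that group). The deubiquitinase gene Tnfaip3, which encodes A20, was at 15.7, 15.5 and 16.3 CPM in Null and 3.69, 4.09 and 3.49 CPM in DKO libraries, while the inhibitor gene Nfkbia was higher by 0.82, Nfkbiz by 1.14 and Bcl3 by 1.35. Of 20 immediate early factors, 7 were lower and 5 higher, and the interaction passed downward for 9. Their median was -0.04, against 0.67 in control cells, and its sign after etoposide changed with the scaling (0.07 on median-centered libraries). Egr1, a growth-factor-induced zinc finger factor, was at 113, 116 and 119 CPM in Null and 10.5, 7.92 and 10.3 CPM in DKO etoposide libraries, but did not pass the test in control cells (27.0 ± 7.53 and 25.9 ± 5.07 CPM, SD, n = 3). Atf3 was lower (-2.48). Fos was higher, with 46.6, 54.8 and 55.9 CPM in Null and 142, 149.7 and 107 CPM in DKO libraries, and the phosphatase gene Dusp1 and Fosl1 by 1.42 and 1.04. Egr1 and Fos, which often respond together, thus differed in opposite directions after etoposide. Fos was also higher in DKO control cells, and the interaction was downward for both genes (-3.55 for Egr1 and -0.86 for Fos).

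**Figure D3:**
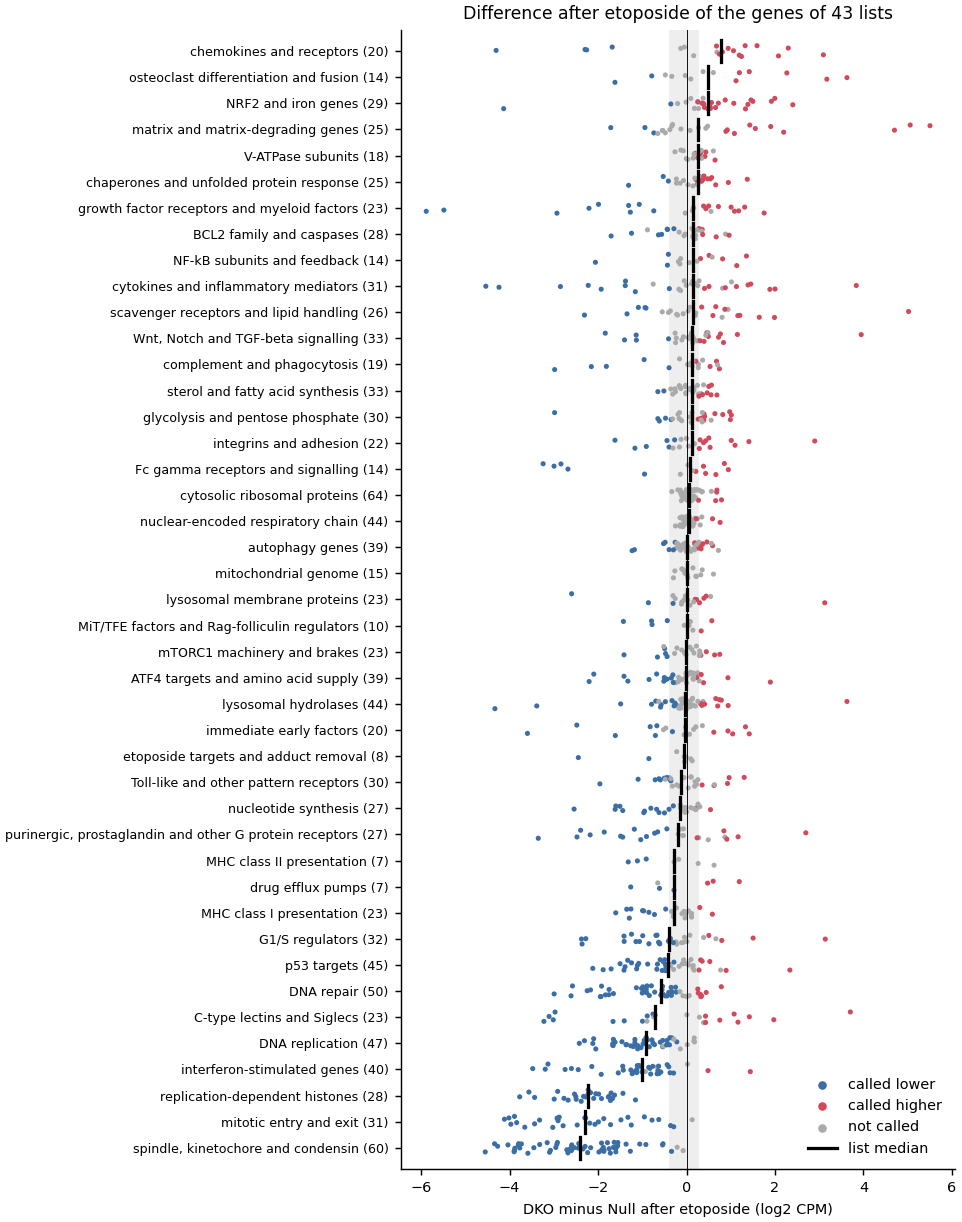
Difference between DKO and Null cells after etoposide (log2 CPM) for each tested gene of the 43 lists, with the number of genes in parentheses and a black bar at the list median. Blue points were called lower, red points higher and grey points neither, and the shaded band is the middle 50% of all genes tested. The medians of the mitotic and histone lists lie at -2.22 to -2.41, left of all others.

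The medians of 11 of the 43 lists changed sign under at least 1 other scaling or fit, namely those of the MiT/TFE regulators, lysosomal hydrolases, lysosomal membrane proteins, autophagy, topoisomerases and adduct removal, efflux pumps, immediate early factors, ATF4 targets, mitochondrial genome, ribosomal proteins and mTORC1, and no direction is read from them.

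Genes of macrophage specialization gave differences in both directions. Of 23 growth factor receptors and myeloid factors, 9 were higher and 9 lower (median 0.15). Klf4, a factor of mature macrophages, was at 3.599, 3.88 and 3.86 CPM in Null and 8.65, 8.73 and 8.48 CPM in DKO libraries. Klf2 was higher by 1.75. Irf4 was lower (-2.21) and the granulocyte factor gene Gfi1, with 219 counts over the Null and 21 over the DKO libraries, too (-2.93). RAW264.7 cells can become osteoclasts, and of 14 genes of that program 6 were higher and 2 lower (median 0.49, or 1.13 over the genes with at least 1 CPM in 3 libraries). Nfatc1, its master factor, was at 121, 121 and 126 CPM in Null and 611, 538 and 627 CPM in DKO libraries, the fusion gene Ocstamp at 3.20, 3.88 and 3.74 CPM against 33.1, 32.1 and 33.4 CPM, and the tartrate-resistant phosphatase gene Acp5 at 0.437, 0.341 and 0.598 CPM against 6.20, 5.68 and 6.79 CPM. Dcstamp was higher by 1.42 and carbonic anhydrase 2 (Car2) lower (-0.79).

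Of 19 genes of complement and phagocytosis 5 were lower and 4 higher (median 0.13). Cybb, the catalytic subunit of the phagocyte NADPH oxidase, was at 774, 701 and 753 CPM in Null and 92.9, 82.6 and 108 CPM in DKO libraries. C3, Tyro3 and the properdin gene Cfp were lower (-2.15, -1.81 and -0.96), and the anaphylatoxin receptor genes C3ar1 and C5ar1 higher by 0.74 and 0.68. Among 26 genes of scavenger receptors and lipid handling 9 were higher and 5 lower (median 0.14, or 0.09 without Null etoposide replicate 1 and 0.21 without DKO etoposide replicate 2, and 0.07 without the genes of the chromosome 9 segments), with the lipoprotein lipase gene Lpl higher by 1.21. Stab1, Apoe and Plin2 were lower (-1.35, -1.09 and -0.94). Of 25 genes of matrix and its degradation 10 were higher and 3 lower (median 0.27, but 0.11 without Null etoposide replicate 1 and 0.90 over the genes with at least 1 CPM in 3 libraries). Timp1, an inhibitor of matrix metalloproteinases, held 8 counts over the Null and 606 over the DKO libraries, and Tnc, tenascin C, 17 and 701, which were 69.8-fold (35.2 to 162) and 38.0-fold (23.6 to 65.6) higher levels. Col18a1 was at 18.3, 20.5 and 19.3 CPM against 91.7, 88.9 and 85.9 CPM, and the protease gene Plau was lower (-0.94).

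Signaling receptors followed no single direction. Of 27 purinergic, prostaglandin and other G protein receptor genes 13 were lower and 5 higher (median -0.19, or -0.32 without the genes of the chromosome 9 segments and -0.08 on median-centered libraries), with the proton sensor Gpr65 at 15.4, 13.2 and 14.6 CPM in Null and 1.45, 1.33 and 1.28 CPM in DKO libraries and the adenosine receptor gene Adora2b at 2.37, 2.69 and 2.49 CPM against 16.3, 15.4 and 18.3 CPM. P2ry6 and P2ry2 were higher by 0.84 and 1.17, and Ptger2 lower (-2.48). Of 33 genes of Wnt, Notch and TGF-beta signaling 9 were higher and 5 lower (median 0.13). Notch1 was at 26.7, 25.8 and 27.8 CPM in Null and 8.61, 6.402 and 7.48 CPM in DKO libraries, and Fzd5 and the inhibitor gene Smad7 were lower (-1.40 and -1.14). Zfyve9, the SMAD anchor SARA, was higher by 3.95, Tgfbr2 by 1.15 and Rbpj, the nuclear factor of Notch, by 0.84.

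Lysosomal and autophagy genes, which TFEB and TFE3 are best known to bind, showed single members in both directions and list medians near that of all genes. Of 44 lysosomal hydrolases 12 were lower and 10 higher (median -0.03), of 23 lysosomal membrane proteins 3 were lower and 6 higher (median 0.01), and of 39 autophagy genes 7 were lower and 8 higher (median 0.02). The sign of these medians changed with the scaling, and on median-centered libraries they were 0.08, 0.12 and 0.13. Ctse and Ctsh, cathepsins E and H, were both lower in DKO cells. Ctse was at 75.2, 74.5 and 76.6 CPM in Null and 3.40, 4.67 and 3.16 CPM in DKO libraries. Ctsh was at 61.5, 62.0 and 61.5 CPM against 5.67, 5.04 and 6.99 CPM. The galactocerebrosidase gene Galc and the alpha-galactosidase gene Gla were lower (-1.49 and -0.79). Gm2a, the GM2 activator, was higher, with 38.0, 39.0 and 38.8 CPM in Null and 68.6, 62.7 and 68.7 CPM in DKO libraries. The beta-galactosidase gene Glb1 and the cathepsin D gene Ctsd were higher by 0.74 and 0.94, and up to 47.4% of the Ctsd counts could be reads of the overlapping Gm49369. Among membrane proteins, the tetraspanin gene Cd63 was at 3.55, 3.39 and 3.05 CPM in Null and 29.9, 30.3 and 28.1 CPM in DKO libraries, Npc2, a soluble carrier kept on that list, was higher by 0.39, and Clcn7, the lysosomal chloride exchanger, was at 31.8, 33.8 and 32.6 CPM against 19.8, 19.9 and 14.7 CPM. Gpnmb, a glycoprotein known to answer to this family of factors, held 285 counts over the Null and 41 over the DKO libraries, 7.55-fold lower (5.42 to 10.7). Of the autophagy genes, Ulk1, the kinase that starts autophagosomes, was at 92.9, 92.1 and 93.0 CPM in Null and 42.6, 35.6 and 40.5 CPM in DKO etoposide libraries and did not pass in control cells (0.18). Atg13, its partner, Atg12 and Wipi1 were lower (-0.52, -0.48 and -1.18), and the cargo receptor gene Sqstm1 and Uvrag were higher by 0.37 and 0.46.

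Subunits of the V-ATPase, the proton pump of lysosomes, included more higher than lower genes. Of 18 genes, 7 were higher and none lower, with a median of 0.26 and 4 values below 0. In control cells 4 were higher and 3 lower, with a median of 0.16. After etoposide the summed level was 1372 to 1392 CPM in Null and 1626 to 1677 CPM in DKO etoposide libraries. Atp6v1a was at 147, 149 and 146 CPM in Null and 226, 243 and 223 CPM in DKO libraries, and Atp6v0a2, Atp6v0b and Atp6v1g1 were higher by 0.44, 0.42 and 0.32. Overlapping reads of Gm12841 could make up 17.4% of the Atp6v0b counts.

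The promoters of 4 genes near this pathway are shown because TFEB and TFE3 bind the E-box CACGTG, in capitals here. Fnip1 and Clcn7 were lower in DKO cells, Atp6v0b was higher, and Lamp1, chosen after its values were seen as a standard lysosomal marker, did not pass the test (559, 549.9 and 529 CPM in Null and 556, 519.9 and 598 CPM in DKO libraries).
Fnip1 (chr11:54438059-54438178, plus strand): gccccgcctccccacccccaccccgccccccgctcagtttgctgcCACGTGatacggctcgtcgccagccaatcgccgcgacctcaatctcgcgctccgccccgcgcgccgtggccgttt
Clcn7 (chr17:25133271-25133390, plus strand): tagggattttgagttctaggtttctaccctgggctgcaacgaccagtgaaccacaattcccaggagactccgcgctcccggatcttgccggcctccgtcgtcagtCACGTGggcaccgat
Atp6v0b (chr4:117887330-117887449, minus strand): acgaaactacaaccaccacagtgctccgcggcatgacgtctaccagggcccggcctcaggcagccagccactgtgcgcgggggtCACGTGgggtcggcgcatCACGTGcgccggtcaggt
Lamp1 (chr8:13159041-13159160, plus strand): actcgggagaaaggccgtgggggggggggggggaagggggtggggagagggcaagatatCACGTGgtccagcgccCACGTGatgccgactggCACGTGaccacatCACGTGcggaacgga
An E-box was thus present within 120 bases of the start of genes that were lower, higher and not called, once in Fnip1 and Clcn7, at 2 places in Atp6v0b and at 4 in Lamp1. Of the 97 genes of the lysosomal, V-ATPase and autophagy lists with a promoter, 22.7% held an E-box within 250 bases, against 9.56% of the genes tested with a promoter and 6.86% of all genes in the promoter table. Of the genes with a promoter that were lower after etoposide 8.58% held one, and of those that were higher 10.8%.

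The mTORC1 machinery and its brakes, which receive signals from lysosomes, had 4 of 23 genes higher, 5 lower and a median of -0.01. The raptor gene Rptor was at 42.99, 44.2 and 45.3 CPM in Null and 76.7, 68.4 and 78.4 CPM in DKO libraries, Akt1s1 and Lamtor1 were higher by 0.63 and 0.45, and the sestrin gene Sesn1, a p53 target that restrains mTORC1, was lower (-0.66). Of 39 ATF4 targets and genes of amino acid supply 13 were lower and 5 higher (median -0.01). The 9 stress-response members of that list had 7 lower and none higher, with a median of -0.85. They were led by Trib3 and Chac1, which were both lower in DKO cells. Trib3 was at 1.21, 1.82 and 1.70 CPM in Null and 0.363, 0.192 and 0.345 CPM in DKO libraries. Chac1 was at 3.31, 3.68 and 3.55 CPM against 0.818, 0.787 and 0.723 CPM. In control cells these 2 genes averaged 21.5 and 13.7 CPM in Null and 28.6 and 14.6 CPM in DKO cells. The cystine transporter gene Slc7a11 was higher, at 31.2, 27.2 and 31.8 CPM in Null and 102, 118 and 115 CPM in DKO libraries, as was Cbs (0.94).

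Antioxidant genes regulated by NRF2 and genes of iron handling were mostly higher. Of 29 tested, 19 were higher and 2 lower, with a median of 0.48 after etoposide and 0.42 in control cells. Of the higher genes, 3 lie on the chromosome 9 segments described below, without which the median after etoposide was 0.44. Srxn1, sulfiredoxin, was at 23.3, 24.7 and 22.6 CPM in Null and 67.1, 71.8 and 61.2 CPM in DKO libraries. Gstm1, a glutathione transferase, was at 1.63, 1.57 and 1.68 CPM against 8.83, 8.08 and 9.73 CPM, Nqo1 at 0.757, 1.06 and 0.675 CPM against 3.599, 3.64 and 3.09 CPM, and the iron exporter gene Slc40a1 differed by 1.92. Cp, the ferroxidase ceruloplasmin that works beside that exporter, ran the other way, at 75.3, 74.5 and 76.2 CPM in Null and 4.16, 4.08 and 4.47 CPM in DKO libraries. In the pentose phosphate pathway, which supplies NADPH, G6pdx and Pgd were both higher in DKO cells. G6pdx was at 264.8, 267 and 257 CPM in Null and 460.1, 435 and 500.3 CPM in DKO libraries. Pgd was at 149, 147 and 139 CPM against 307, 266 and 285 CPM. Over the whole list of glycolysis and pentose phosphate genes 10 of 30 were higher and 5 lower (median 0.12, or 0.19 without DKO etoposide replicate 3), among them the pyruvate kinase gene Pkm (0.99), Aldoc (1.01) and the myeloid hexokinase gene Hk3 (-2.98). Of 33 genes of sterol and fatty acid synthesis 7 were higher and 2 lower (median 0.12), with Msmo1 at 0.69 and Scd1 at -0.65.

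Chaperones and the unfolded protein response had 13 of 25 genes higher and 3 lower, with a median of 0.26, against 0.03 in control cells. Hyou1, an endoplasmic reticulum chaperone, was at 197, 191 and 193 CPM in Null and 500.2, 458 and 551 CPM in DKO libraries. Xbp1, the factor spliced by IRE1, was at 73.5, 77.7 and 73.5 CPM against 143, 152 and 138 CPM without a difference that passed in control cells (-0.13), and Manf and Hspa8 were higher by 0.66 and 0.57. The IRE1 gene Ern1 and the heat shock gene Hspa1b were lower (-0.53 and -1.31). Few genes of energy supply and protein synthesis passed. No member of the 15 mitochondrial genome genes tested passed, 3 of 44 nuclear-encoded respiratory chain genes were higher (median 0.05) and 5 of 64 cytosolic ribosomal protein genes were higher (median 0.05), with none lower in either list. Of those 5, Rpsa, Rplp1, Rpl4 and Rps25 differed by 0.79, 0.69, 0.68 and 0.66, the last losing its call without DKO etoposide replicate 2 (0.56), and all 4 lie on the chromosome 9 segments described next, as do 2 of the 3 respiratory chain genes, Uqcrc1 (0.76) and Cox5a (0.59). The fifth, named to complete the 5, was Rpl13a at 0.27, for which overlapping Gm45713 could account for 39.3% of the counts.

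Genes on 2 stretches of chromosome 9 were higher in DKO cells as a group. The boundaries were set from the control differences alone, as the 2 breaks that best divided those of 552 protein-coding genes into 3 runs. These genes were the ones that averaged at least 5 CPM in either etoposide group. The proximal segment, from Alkbh8 to Rnf111, held 386 tested protein-coding genes, of which 258 (66.8%) were higher and 25 lower after etoposide, with a median of 0.57. The distal segment, from Gm20662 to Ppp2r3d at the end of the chromosome, held 147 such genes, of which 105 (71.4%) were higher and 6 lower, with a median of 0.61. Between them 184 protein-coding genes from Sltm to Cdhr4 gave 32 higher, 42 lower and a median of 0.04. The medians of the other 19 chromosomes lay between -0.02 and 0.11. In control cells, which chose the boundaries, the 2 segments had medians of 0.60 and 0.55. Measured per library over its protein-coding genes of at least 5 CPM, as the median deviation from the mean of the 6 etoposide libraries, the proximal segment stood at -0.31 to -0.29 in the Null and 0.28 to 0.32 in the DKO etoposide libraries, and the groups did not overlap.

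DNA copy number was not measured, so its part in these differences was not tested. Over all gene types the 2 segments held 689 tested genes, of which 400 (58.1%) were among the 2868 called higher and 38 lower, and without the genes of both segments 5641 genes were called, 2468 higher and 3173 lower, an alternative chosen after seeing the data. Named genes on the proximal segment are Ccnb2, Casp1, Acp5, Pkm, Hyou1, Hspa8, Cox5a, Rplp1, Rpl4, Rps25 and Plet1, and on the distal segment Myd88, Ccr1, Ccr3, Ccrl2, Glb1, Tgfbr2, Uqcrc1 and Rpsa. Acp5 (3.63) and Ccr1 (3.09) lay above the upper quartile of their segments (0.86 and 0.87), and Ccnb2 and Ccrl2 were lower although they lie there. The mitotic lists have 8 members on the segments and none of them was higher.

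**Figure D4:**
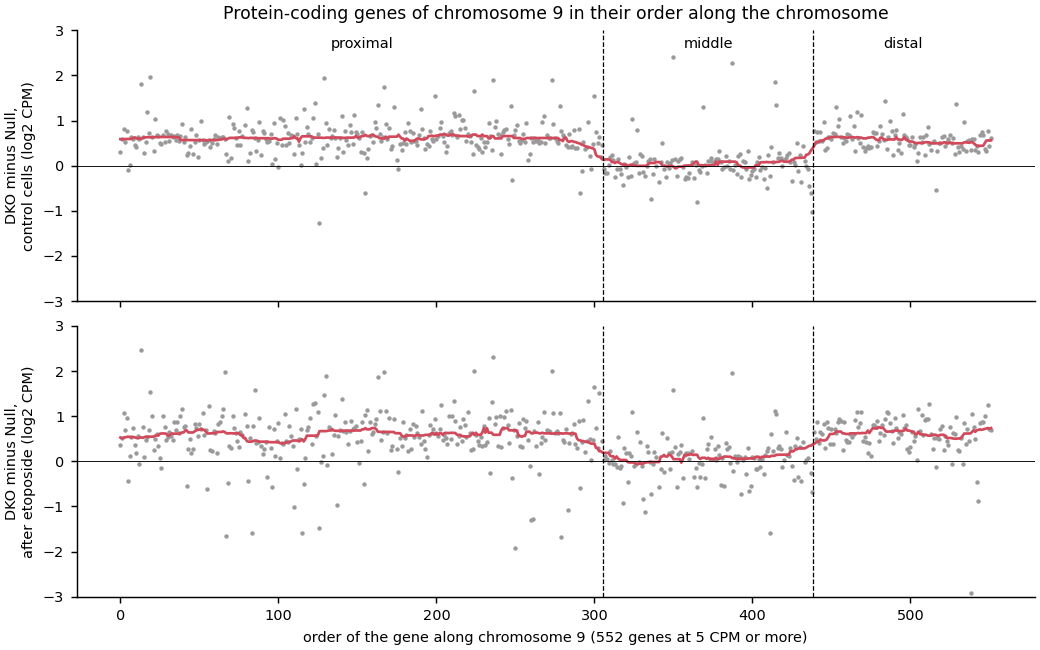
Difference between DKO and Null cells for 552 protein-coding genes of at least 5 CPM along chromosome 9, in gene order, in control cells and after etoposide, with a running median of 31 genes. The running median is near 0.6 in the 2 outer segments and near 0 between them under both conditions, and 4 genes in control cells and 8 after etoposide lie beyond the axis limits of -3 and 3.

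The difference also varied with the length of the gene. Over protein-coding genes outside the chromosome 9 segments, those that span 100 to 300 kb had a median of 0.13, with 338 of 1246 higher and 172 lower, and those over 300 kb a median of 0.23, with 82 of 226 higher and 34 lower. Among all 12752 protein-coding genes 19.8% were higher and 18.8% lower, and among the 12022 on nuclear chromosomes other than 9 the shares were 17.7% and 19.4%. The 4 shorter classes had medians of -0.02 to 0.04. In control cells the medians of the 2 longest classes were 0.02 and 0.00. The genes over 300 kb stood at -0.17 to -0.07 in the 3 Null and at 0.11 to 0.14 in the 3 DKO etoposide libraries, relative to the mean of these 6, so that the lines did not overlap. Of the 15 highest and the 15 lowest genes, 5 and 4 span over 100 kb. For comparison, the 2 classes over 100 kb held 1246 and 226 genes and the 4 shorter ones 746, 2388, 4094 and 3519.

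**Figure D5:**
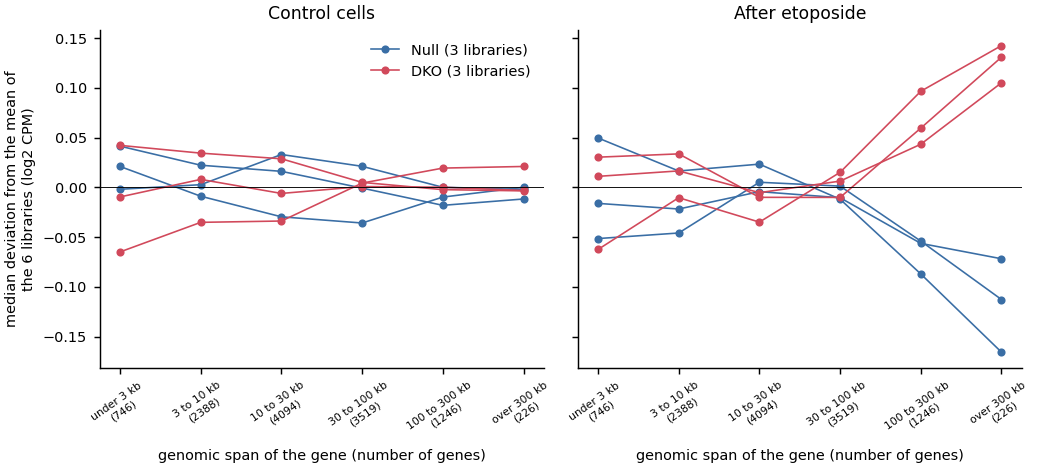
Median deviation of each library (log2 CPM) from the mean of the 6 libraries of the same treatment, by the genomic span of the gene, for protein-coding genes outside the chromosome 9 segments. Each line is 1 library, blue for Null and red for DKO. After etoposide the red lines lie above the blue ones in both classes over 100 kb, and over 300 kb they reach 0.11 to 0.14 against -0.17 to -0.07.

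Some classes of short noncoding RNA leaned the other way, beside the 17.8% lower and 15.9% higher of all genes tested. Of 293 small nucleolar RNA genes 62 were lower (21.2%) and 2 higher (0.683%), with a median of -0.36, and of 104 spliceosomal small nuclear RNA genes 29 were lower (27.9%) and 1 higher, with a median of -0.54. Their small Cajal body relatives had 6 of 21 lower, none higher and a median of -0.53. The 349 microRNA genes had a smaller share lower (12.03%, 42 genes) than all genes tested and 16 higher, with a median of -0.16. Long intergenic RNAs had 122 of 604 lower and 57 higher, with a median of -0.19. In control cells the medians of these 5 classes were -0.19, -0.36, -0.04, -0.03 and -0.06. Such short RNAs are poorly kept by standard library preparation, and many lie within introns of host genes. The part of these in the counts was not tested. The lean was not particular to these classes. Genes of the annotation type TEC had 159 of 912 lower and 39 higher (median -0.27). Antisense genes had 154 of 1071 lower and 110 higher (median -0.09), and processed transcripts 70 of 359 lower and 39 higher (median -0.10).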

How the data were processed

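The series holds RNA-seq of 12 RAW264.7 libraries in 4 groups of 3. The authors deposited 1 table of raw counts per gene, which are not normalized. Per the labels, reads were aligned with HISAT2 to mm10 and counted with featureCounts, whereas the study's methods name HTSeq as the counter, and no versions are given for either in the sources used here. The counts were used as deposited. Whether reads were counted by strand was not established here, although the study's methods name a stranded library kit. Where a neighbor on either strand shares exon bases, its reads were estimated from its mean density over its exons. If reads were counted by strand, shares from a neighbor on the other strand are too high. Each share is the larger of the Null and DKO etoposide estimates, and shares that exceed 10% are given beside the gene.

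Genes were kept by the filterByExpr function of edgeR 4.0.16, which left 18066 of 32688 genes and 99.96% of all counts. Counts were scaled by TMM, turned into log2 CPM with a prior count of 3, and fitted with limma-trend (limma 3.58.1, R 4.3.3) with robust empirical Bayes moderation, 1 mean per group and all 12 libraries. The study's methods name limma-trend, robust empirical Bayes and a q-value of 0.05, whereas the scaling, the prior count, the filter and the joint fit were chosen here. Tests were two-sided and p-values were Benjamini-Hochberg adjusted over all genes tested, with a call at an adjusted p under 0.05. The fits were tested on simulated counts. Intervals of single ratios are exact binomial 95% intervals on summed counts and cover counting error only.

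The members and the 43 gene lists were chosen with earlier results of these data known, and no set test was run. Genes named are Tfeb and Tfe3, the 15 lowest and 15 highest differences among called protein-coding genes of at least 5 CPM whose groups did not overlap, the 10 lowest and 10 highest of those with a called interaction and a control difference that was not called and under 0.5, and, per list, up to 4 called members at either end or any member of a list of 12 or fewer. Exceptions are stated in the text, and a few genes that this rule names are not reported here. Gene positions and types come from GENCODE release 21 for GRCm38, in which 99.4% of the genes were named. Promoters were read from a RefSeq table of GRCm38.p6, which held 10808 of the symbols tested (59.9%). The 12 alternatives were other scalings (library size, RLE, median-centered, no mitochondrial genes), filters, a prior count of 0.5, a minimum log2 difference of 1, edgeR's quasi-likelihood test, DESeq2 1.42.0, the libraries compared alone and the replicate number as a block, and each of the 12 libraries was also left out in turn.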

Additional observations from a re-analysis of the deposited data

Results flagged for a closer look

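Flagged here are the results for which the difference between DKO and Null cells was not the same after etoposide as in control cells, by the interaction of genotype and drug in limma-trend with Benjamini-Hochberg adjustment at an adjusted p of 0.05. This passed for 1708 of the 18066 genes tested. The genes named in the report for which it passed are given here, and each value is the interaction on the log2 scale, that is, the difference after etoposide minus the difference in control cells, from 3 libraries in each of the 4 groups. No explanation of these values was tested.

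Some genes did not pass in control cells and were lower in DKO cells after etoposide, with interactions of -4.53 to -0.57. In order of the interaction these began with Cenpf -4.53, Hmmr -4.32, Depdc1a -4.31, Ccnb2 -4.3, Plk1 -4.26, Aspm -4.22, Cdc25c -3.98 and Nuf2 -3.95. Then came Kif14 -3.85, Fam83d -3.69, Ttk -3.64, Egr1 -3.55, Hist1h1b -3.15, Hist1h3c -3.0, Hist1h3b -3.0 and Fancd2 -2.99. They were followed by Cxcl10 -2.78, Trib3 -2.62, Rrm2 -2.48, Tyro3 -2.31, Top2a -2.3, E2f7 -2.16, E2f8 -2.16 and Chac1 -2.15. Next were Clspn -2.13, Ckap2 -1.99, Bard1 -1.97, Gtse1 -1.92, Gins1 -1.67, Bbc3 -1.57, Tk1 -1.45 and Ulk1 -1.41. After these stood H2-Q4 -1.32, Rrm1 -1.31, Stab1 -1.14, Plin2 -1.04, Gadd45a -1.04, Plau -0.97, Atg13 -0.62 and Gla -0.57.

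Some genes did not pass in control cells and were higher in DKO cells after etoposide, with interactions of 0.49 to 2.31. In order of the interaction these began with Manf 0.49, Calr 0.49, Hspa8 0.53, Akt1s1 0.59, Ptpn6 0.67, Lyn 0.81, Nfam1 0.99 and Zfp710 1.01. Then came Sh3bp5 1.01, P2ry6 1.07, Xbp1 1.07, Abca1 1.15, Nfkbiz 1.17, Ifi213 1.26, Cd14 1.29 and Odc1 1.42. They were followed by Ptpre 1.46, Tha1 1.47, Ccr3 2.3 and Tmem86a 2.31.

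Some genes were lower in DKO cells under both conditions and further apart after etoposide, with interactions of -2.28 to -0.33. In order of the interaction these began with Fancb -2.28, Rad51ap1 -2.24, Mcm10 -2.14, Mx1 -1.79, Prim1 -1.74, Fcgr1 -1.59, Tyms -1.32 and Tnfaip3 -1.21. Then came Fcgr2b -1.14, Ptgs1 -1.09, Notch1 -1.0, Fcgr3 -0.94, Smad7 -0.71, Apoe -0.70, Tlr13 -0.59 and Abcb1b -0.33.

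Some genes were higher in DKO cells under both conditions and further apart after etoposide, with interactions of 0.35 to 4.2. In order of the interaction these began with Clec5a 0.35, Abcc1 0.39, Clec4e 0.70, Tgfbr2 0.87, Klf2 1.05, Slc6a4 1.1, Cd36 1.13 and Oasl1 1.15. Then came Nfatc1 1.35, Slc7a11 1.36, Adora2b 1.43, Tnc 1.97, Il10 2.15, Pla2g2d 2.65, Scin 2.98 and Lipg 4.2.

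Some genes passed in opposite directions without and with etoposide, with interactions of -2.15 to 1.15. They were Fzd5 -2.15, Pmaip1 -2.05, Uvrag 0.86 and C5ar1 1.15.

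Some genes were lower in DKO cells under both conditions and closer together after etoposide, with interactions of 0.49 to 1.71. They were Scd1 0.49, Sesn1 0.74, Tfeb 1.16, Hpgd 1.26, Ctsh 1.31, Htr1b 1.43, Car2 1.54 and Col26a1 1.71.

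Some genes were higher in DKO cells under both conditions and closer together after etoposide, with interactions of -2.31 to -0.51. They were Myc -2.31, Fosl1 -2.3, Ocstamp -1.5, Lpl -1.48, Zhx2 -1.13, Fos -0.86, Abcc3 -0.66 and Sqstm1 -0.51.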

How the results depend on the processing

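The direction of the 242 called genes named in the text was the same under the alternatives and the 12 fits that left out 1 library. They were mostly chosen by their calls in these same libraries, so this is no independent support. A minimum log2 difference of 1 ended the call of 72 of them, and at the other settings 4 lost it (Abcg2, Abcc5, Ccr1 and Rps25, with the values given beside them). With that minimum, 2167 genes were called after etoposide, 816 by the interaction and 1365 in control cells. On the 6 control libraries alone, with their own filter, scaling and spread, 2031 of 16626 genes were called in control cells. With all 12, where the groups share 1 estimate of the spread, 3490 of 18066 were called. On the 6 etoposide libraries alone 8223 of 17459 were called after etoposide. Leaving out 1 library gave 4737 to 7004 genes after etoposide, 1203 to 2038 by the interaction and 2727 to 4721 in control cells. The 18 lists with a median of at least 0.25 in either direction kept its sign at all but 1 setting, a filter of at least 1 CPM in 3 libraries, under which 17 did, the efflux pumps, with fewer genes tested, had a median of 0.45 and the C-type lectins and Siglecs went from -0.71 to -0.02. The size was not kept throughout, since 15 lists stayed at or over 0.25 with library size alone, 15 on median-centered libraries, 14 with that filter and 14 to 18 when 1 library was left out. In the fits that left out 1 library the sign was kept by 18 throughout, and the median of the chromosome 9 segments less that of the other chromosomes was 0.56 to 0.57.

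With the replicate number as a block, 5394 genes were called after etoposide, 1310 by the interaction and 3009 in control cells, 18 lists kept their direction and the chromosome 9 value was 0.57. The numbers do not pair the libraries, since same-numbered etoposide libraries correlated at -0.04, 0.08 and 0.01 in their deviations from the group means, same-numbered control libraries at -0.54, -0.01 and -0.41, and libraries did not all correlate best with their own number. Control libraries of different number correlated at -0.33 to 0.58, the highest being Null replicate 3 with DKO replicate 1. Tools differed little, with 6218 genes by edgeR and 6758 by DESeq2 after etoposide. At low counts the precision is limited by counting error, as for Abcb1a, with 89 counts over the Null and 57 over the DKO libraries, a 1.69-fold lower level (1.20 to 2.41) that did not pass.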
